A study of Bos taurus with 24 samples.

Results

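The 24 RNA sequencing libraries of the study were compared by tissue: 12 from mammary gland and 12 from liver of the same 12 dairy cows (Bos taurus), which is every library of the series. Libraries were assigned to a tissue by the tissue letter of their titles and joined into pairs by diet and cow number. Of the cows, for 12 weeks 6 had been fed mainly on alfalfa hay (the alfalfa hay diet) and 6 on corn stover (the corn stover diet), and both tissues were taken after slaughter. All 12 cows were giving milk, from 23.3 to 29.0 kg per day on alfalfa hay and from 17.1 to 23.3 kg per day on corn stover. They were late in lactation, at 231 to 246 days in milk on alfalfa hay and 228 to 254 days on corn stover. Parity was 2 in 1 cow per diet and 3 in the rest. The labels give no genotype, and each library comes from 1 piece of tissue, so fewer cells of a type and less RNA per cell cannot be told apart.

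The lactating mammary gland is a secretory epithelium that makes the proteins, lactose and fat of milk. Its epithelial cells devote much of their messenger RNA to a few milk proteins, mainly caseins and whey proteins. The liver makes most proteins of blood plasma, among them albumin, clotting factors, complement and apolipoproteins, and it carries glucose synthesis, urea synthesis, fat metabolism and bile acid synthesis. In a cow in milk the liver supplies the glucose from which the gland makes lactose.

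The deposited tables name genes by Ensembl bovine identifiers alone, and of these 24616 identifiers 0 could be found in the table of gene names used here. The labelled tissues could therefore not be checked against known marker genes, and the genes below are described by their rank, level and tissue pattern. At most 2 identifiers per direction are printed, the most abundant gene and the most abundant restricted gene of each tissue, which were chosen after their values were seen. Total counts ran from 23595586 to 32563876 in liver and from 22579051 to 37954234 in mammary gland. Levels are given as CPM, the usual read count scaled to a common library total, unless stated otherwise.

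Before the tissues were compared, libraries of the same tissue were compared with each other. Distance was the median absolute log2 difference over genes at a median of at least 5 CPM in that tissue, after the median difference was removed. Mammary libraries of alfalfa hay cows 1 and 2 lay 0.129 apart, while the next closest of the 66 mammary pairs lay 0.232 apart and the median pair 0.332. The closest of the 66 liver pairs lay 0.187 apart, the next 0.2 and the median 0.34. The mammary gland thus holds 1 pair of libraries that are closer to each other than any other pair. The counts of this pair differed by more than the counting noise of a single library sequenced again, with a median chi-square per gene of 2.02, where counting noise alone gives 0.455 and the median mammary pair gives 16.1. That comparison does not tell separate animals from separate preparations or pieces of the same gland. The labels name separate cows, and the libraries were kept as separate samples on that ground alone. Were they from the same animal, the 12 mammary libraries would come from fewer than 12 cows, and the p-values below would count 1 cow too many.

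**Figure D1:**
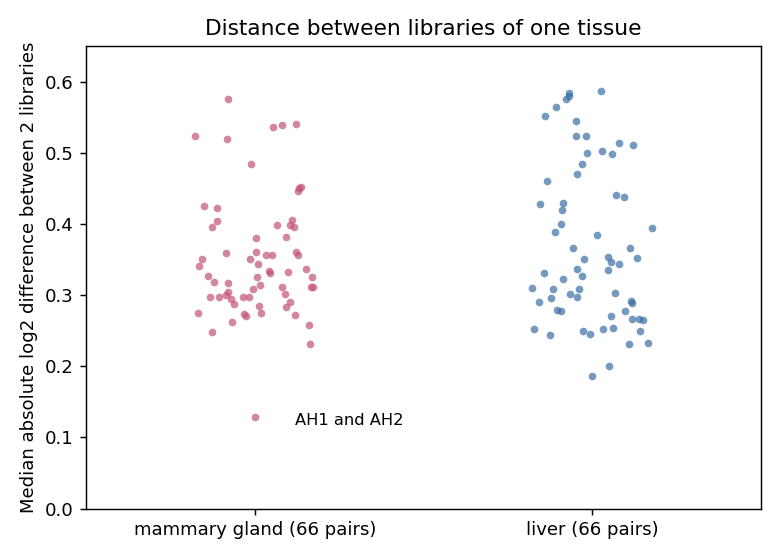
Median absolute log2 difference between every 2 libraries of the same tissue, 66 points per tissue, with points spread sideways at random. Mammary libraries AH1 and AH2 (alfalfa hay cows 1 and 2) lie at 0.129, below the other mammary pairs, the next of which is at 0.232.

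The pairing of liver with mammary gland comes from the labels. Milk yield, intake, days in milk and parity were the same for both libraries of a cow in 12 of 12 cows. It was also set against genes that are on in some cows and off in others. The rule for such genes was chosen after the data were seen and after several limits had been looked at, so the counts are a description without a test. A gene was taken where the largest gap between ordered libraries was at least 2 log2 units in each tissue, with the highest library of each tissue at 1 CPM or more and 2 to 10 libraries of each tissue on. This gave 8 genes, and 10 genes with a gap of 1.5. In 9 of the 12 cows the mammary gland and liver were in the same state for at least 7 of the 8 genes.

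The exceptions were alfalfa hay cows 1 and 2 and corn stover cow 3. The mammary gland of corn stover cow 3 shared the state of its own liver for 3 of the 8 genes, and all 11 other livers were at least as alike. For alfalfa hay cow 1 the count was 5, with 7 other livers at least as alike, and for alfalfa hay cow 2 it was 6, with 5 others at least as alike. Over all genes tested, the deviations of both libraries of alfalfa hay cow 2 from their group means correlated at 0.314. That was the highest value of the 12 cows, while alfalfa hay cow 1 was at -0.136 and corn stover cow 3 at 0.03. With the 10 genes of the smaller gap, corn stover cow 3 shared 4 and again had 11 other livers at least as alike, alfalfa hay cow 1 shared 6 and the other cows 8 to 10. Only 4 of the 12 cows then differed in at most 1 gene. The mammary libraries of alfalfa hay cows 1 and 2 were in the same state for 8 of the 8 genes and for 10 of the 10, while their livers shared 3 and 4. Of the 66 mammary pairs, 3 were alike in all 8 genes and 1 in all 10, and the median pair shared 5.0 and 6.0. Over the 8 genes, alfalfa hay cows 3 and 4 shared 7 and had 1 other liver at least as alike, and corn stover cow 4 shared 7 and had 2. In the gene with the highest levels among the 8, the mammary glands of alfalfa hay cows 5 and 6 stood at 669 and 746 CPM, and the others at 0.164 to 19.4 CPM. In liver the same cows stood at 334 and 335 CPM. The liver of corn stover cow 3 was at 883 CPM for this gene, against 1.03 CPM in its mammary gland, and the remaining livers were at 0.0766 to 2.15 CPM. Whether libraries of different cows were exchanged, or whether 2 mammary libraries come from the same cow, was not tested, and no library was moved to another cow. The main paired results are also given without alfalfa hay cow 1 and corn stover cow 3, and without these and alfalfa hay cow 2, choices made after the data were seen.

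The question of what each tissue spends its transcripts on was addressed first by how many genes hold the reads. Reads were not corrected for gene length. Shares and ranks of genes are therefore those of reads and not of transcript molecules. In mammary gland the 10 most abundant genes of a library took a lowest share of 64.57%, a median of 74.84% and a highest share of 80.52% of its reads. In liver they took 26.33%, 28.06% and 36.1%. The tissues did not overlap, and the share was higher in the mammary gland of 12 of 12 cows, by 44.88 ± 6.995 percentage points (mean ± SD of the 12 differences). An exact sign-flip permutation test over the 12 cows, two-sided, gave p = 0.000488, the smallest that 12 cows allow, and 0.000651 after Benjamini-Hochberg adjustment over 4 measures. Without alfalfa hay cow 1 and corn stover cow 3 the difference was 45.35 percentage points, and without alfalfa hay cow 2 as well it was 45.86.

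From 2 to 4 genes held 50% of the reads of a mammary library, with a median of 3. In liver the same share was spread over a lowest of 48, a median of 101.5 and a highest of 128 genes. For 90% of the reads the mammary libraries needed from 394 to 1811 genes (median 956) and the livers from 2115 to 3466 (median 3174). Both counts were lower in the mammary gland of 12 of 12 cows (exact permutation p = 0.000488, adjusted 0.000651). Fewer genes also reached 1 CPM in mammary gland, with a lowest of 9897, a median of 10570 and a highest of 11030. In liver the values were 10660, 11730 and 11970, and the ranges overlapped. The count was lower in the mammary gland of 11 of 12 cows, with a mean difference of -1102 ± 588.2 genes (SD, n = 12; exact permutation p = 0.00146, adjusted 0.00146). In alfalfa hay cows alone the mean difference was -1126 and did not pass the threshold (6 cows, exact permutation test, adjusted p = 0.0625). Without alfalfa hay cow 1 and corn stover cow 3 the mean differences, mammary gland minus liver, were -93.5 genes for 50% of reads, -2154 for 90% and -1253 at 1 CPM (exact permutation test, adjusted p = 0.00195 each). Leaving out alfalfa hay cow 2 too, they were -95.11, -2201 and -1259 (exact permutation test, adjusted p = 0.00391 each). CPM is a share of a library, so a gene reaches 1 CPM less easily where a few genes take most reads.

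**Figure D2:**
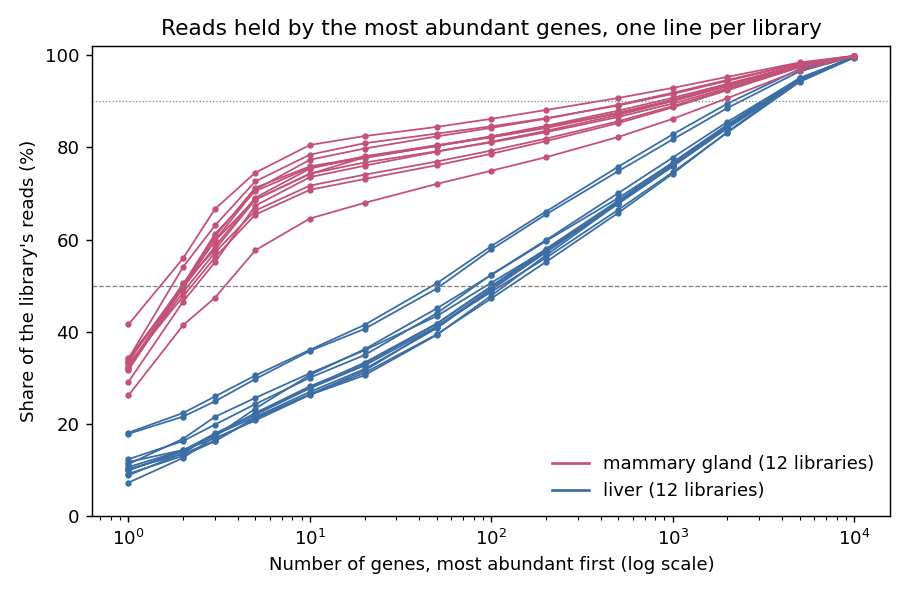
Share of a library's reads (%) held by its most abundant genes, against the number of genes counted on a log scale, with 1 line per library. The mammary lines are at 64.57 to 80.52% at 10 genes, above all liver lines, which are at 26.33 to 36.1% there; dashed and dotted lines mark 50% and 90%.

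The most abundant mammary gene was ENSBTAG00000007695. It took a lowest of 26.2%, a median of 32.7% and a highest of 41.6% of mammary reads. In liver it stood at 0 to 103 CPM, with a median of 6.83 CPM and no read in 1 liver. Every mammary library lay above every liver. Its level differed by 16.78 ± 1.98 log2 units (SE; quasi-likelihood test of edgeR with Benjamini-Hochberg adjustment over all genes tested, adjusted p = 8.29e-07), and it was higher in mammary gland in 12 of 12 cows. SE here and below is the size of the log2 difference divided by the square root of the F statistic of the test. It was derived from the test and not estimated separately. The size of the log2 difference rests on the few liver reads: it was 13.84 in alfalfa hay cows alone and 20.05 in corn stover cows alone (edgeR adjusted p = 0.00051 and 3.53e-05). The liver level also differed within alfalfa hay, at 42.3 to 103 CPM in cows 1 to 5 and 0.473 CPM in cow 6. Whether the log2 difference changed with diet was not tested. The edgeR adjusted p of this gene, or that of the other tools, was below 0.05 under every alternative run, up to 0.00051. The second gene took 14.3 to 19.9% of mammary reads, the third 5.98 to 10.9% and the fourth 5.08 to 7.65%. These 4 genes held the same order in all 12 mammary libraries. The share of the first gene varied 1.59-fold between its lowest and highest library and that of the second 1.39-fold.

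ENSBTAG00000017121 was the most abundant liver gene, with a lowest share of 7.3%, a median of 10.5% and a highest share of 18.1% of liver reads. It came first in all 12 livers. In mammary gland it stood at 4.73 to 274 CPM, with a median of 23.0 CPM, so that the tissues did not overlap. Its log2 difference, mammary gland minus liver, was -10.91 ± 1.01 (SE; edgeR adjusted p = 3.9e-08). It was -11.99 in alfalfa hay cows alone and -9.76 in corn stover cows alone (edgeR adjusted p = 1.97e-05 and 7.89e-05). The second liver gene took 2.61 to 5.5% and the third 2.11 to 4.77% of liver reads. The eighth varied most among the 10 liver genes, from 0.0802% in corn stover cow 1 to 2.74% in alfalfa hay cow 3, a 34.1-fold range.

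Among the 10 genes with the highest medians, 8 in mammary gland and 7 in liver belonged to the 10 most abundant of every library of that tissue. At least 1 library placed 18 genes in mammary gland and 15 in liver among its own 10. Both tissues shared 1 gene among their 10 most abundant, which was the seventh in mammary gland and the fourth in liver. It took 1.25 to 2.95% of mammary reads and 1.06 to 4.26% of liver reads. These ranges overlapped, and the level differed by 0.43 ± 0.47 log2 units (SE; edgeR adjusted p = 0.437). The 10 mammary genes together held 1.24 to 4.93% of liver reads, with a median of 2.94%, most of it in this shared gene. The 10 liver genes held 1.38 to 3.06% of mammary reads, with a median of 1.65%.

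Further down the ranking the tissues differed in makeup. Genes were called enriched in a tissue where the edgeR adjusted p was below 0.05 and the log2 difference at least 3, and shared where the log2 difference was under 1. The rest were intermediate. Of the 100 most abundant mammary genes, 39 were mammary-enriched, 41 intermediate, 19 shared and 1 liver-enriched. Of the 100 most abundant liver genes, 80 were liver-enriched, 12 intermediate and 8 shared. The lists had 13 genes in common among the 100 most abundant and 451 among the 1000 most abundant.

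Over all genes, 12819 passed the filter on low counts and were tested with the cow as a block. Of these, 8584 differed between the tissues, which is 67.0% of the genes tested (edgeR, adjusted p below 0.05). In mammary gland 4182 were higher (32.6%) and 4402 lower (34.3%). Mammary-enriched genes numbered 708 (5.52%) and liver-enriched genes 1072 (8.36%), while 7571 were shared and 3468 intermediate. On levels scaled by TMM, which is described below, all mammary libraries lay above all livers for 1371 genes (10.7%) and below them for 1805 genes (14.1%). These counts were not made under another scaling. At larger differences liver-enriched genes outnumbered mammary-enriched genes further. At least 128-fold differences were called in 402 genes toward liver and 165 toward mammary gland, and at least 1024-fold differences in 178 and 59. Without alfalfa hay cow 1 and corn stover cow 3, 8272 genes differed, 3755 higher and 4517 lower in mammary gland, and 673 were mammary-enriched and 1118 liver-enriched. With alfalfa hay cow 2 also left out, 7854 differed, 3549 higher and 4305 lower, with 677 and 1116 enriched.

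The balance of higher and lower calls depended on how libraries were scaled. TMM, which scales libraries by a trimmed mean of their gene-wise ratios, gave a median log2 difference of -0.0245 over all genes tested and 48.7% of calls higher in mammary gland. Scaling by the library total alone moved this median to -1.0241 and left 1510 genes higher and 8727 lower, or 14.8% higher. Leaving the 10 most abundant genes of each tissue out of the total moved the median to 0.45, with 6375 higher and 2888 lower, or 68.8% higher. Relative to TMM the sign of 6827 of the 8584 called genes was kept under the library total. The differences above are therefore relative to the bulk of genes and not amounts of RNA per cell. The counts of enriched genes moved with it too, from 708 and 1072 to 472 mammary-enriched and 1595 liver-enriched under the library total, and to 890 and 935 under the total without the 10 genes. Liver-enriched genes were the more numerous under each of these scalings.

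**Figure D3:**
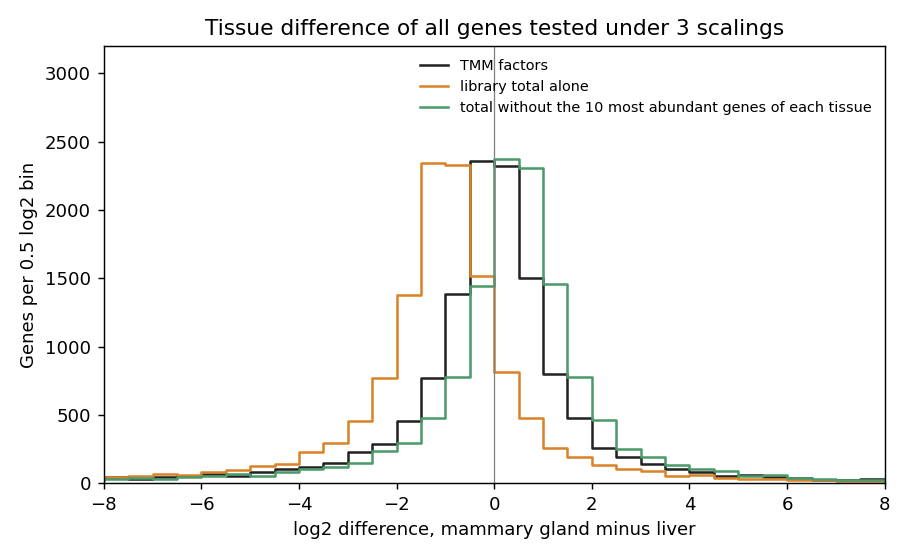
Number of genes per 0.5 log2 bin of the difference, mammary gland minus liver, for the 12819 genes tested under 3 scalings, with bins beyond 8 log2 units in either direction not shown. The median lies at -0.0245 with TMM factors, -1.0241 with the library total alone and 0.45 with the total without the 10 most abundant genes of each tissue.

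The enriched genes took most of the reads of their own tissue. Mammary-enriched genes held a lowest of 66.8%, a median of 77.7% and a highest of 81.9% of mammary reads, and 0.208 to 0.341% of liver reads. Liver-enriched genes held 53.0%, 57.7% and 61.4% of liver reads, and 0.241 to 0.495% of mammary reads. The classes were made from these libraries, so the shares describe them and are no test. In mammary gland the share rested on few genes: without those among the 10 most abundant, the remaining 700 mammary-enriched genes held 3.41 to 5.19% of reads. In liver the 1063 liver-enriched genes outside the 10 most abundant still held 28.3 to 35.3%.

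The median level of the enriched genes in their own tissue was spread differently. Of the mammary-enriched genes 18 stood at 1000 CPM or more and 62 at 100 to 1000 CPM. Of the liver-enriched genes 88 and 327 did so. Below these, 265 mammary-enriched and 393 liver-enriched genes stood at 10 to 100 CPM, 331 and 261 at 1 to 10 CPM, and 32 and 3 below 1 CPM. Shared genes held 11.3 to 20.2% of mammary reads and 23.7 to 30.3% of liver reads, and intermediate genes 6.44 to 12.4% and 14.4 to 16.8%. Genes that were not tested held at most 0.263% of the reads of a library.

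**Figure D4:**
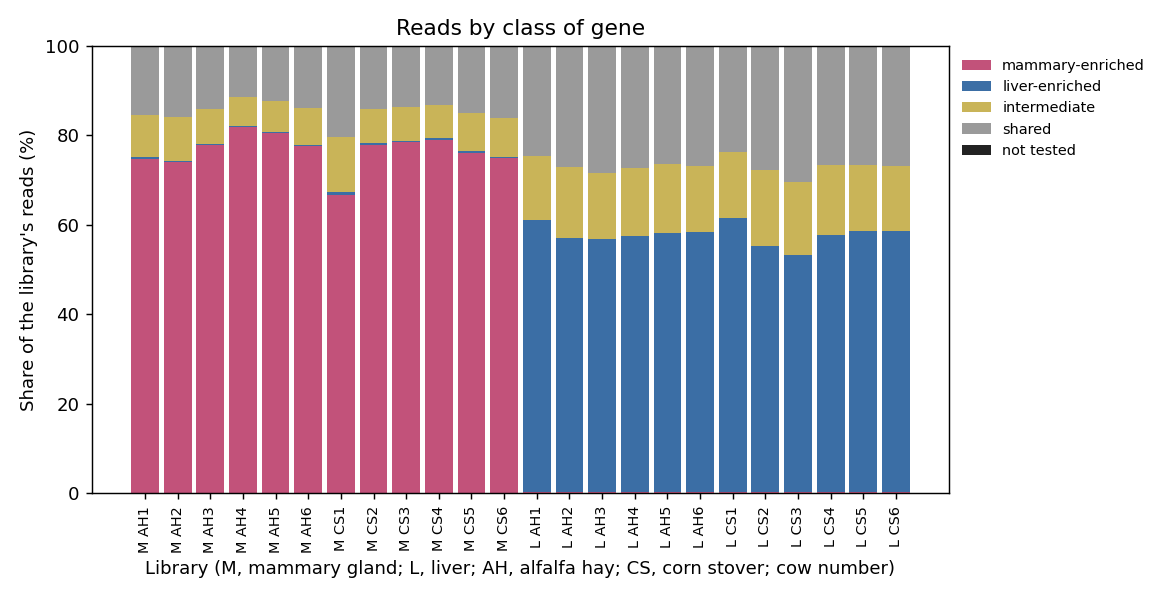
Share of reads (%) by class of gene in each of the 24 libraries, as stacked bars that start at 0. Mammary-enriched genes fill 66.8 to 81.9% of the mammary bars and liver-enriched genes 53.0 to 61.4% of the liver bars; genes not tested are at most 0.263% and too thin to see.

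Genes were called restricted to a tissue where their median was at least 1 CPM there and every library of the other tissue was below 0.1 CPM. This rule selects on the values, and no test was made. Restricted genes were rare: 56 of the 10529 genes at a median of 1 CPM or more in mammary gland (0.532%) and 134 of the 11636 in liver (1.15%). Of these, 39 and 109 were among the genes tested. No read at all was found in the other tissue for 18 mammary-restricted and 37 liver-restricted genes. No library of the other tissue held more than 3 reads of any restricted gene. A count of 0 allows up to 3 reads, or 0.0921 to 0.127 CPM in a liver and 0.079 to 0.133 CPM in a mammary library. These limits cover counting error only.

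Restricted genes were of low to middle level. In mammary gland 17 reached a median of 10 CPM and 2 reached 100 CPM, and in liver 43 and 3 did. None of the 27 mammary genes and none of the 110 liver genes at 1000 CPM or more was restricted. The limit in the other tissue does not rise with a gene's own level, so in proportion it is stricter for abundant genes. The level of the restricted genes thus depends on this fixed limit. Together the restricted genes held 0.066 to 0.183% of mammary reads and 0.173 to 0.219% of liver reads. The most abundant mammary-restricted gene, ENSBTAG00000006263, had a lowest of 89.8, a median of 392 and a highest of 777 CPM in mammary gland, with 9 reads summed over the 12 livers. Its log2 difference was 14.49 in the fit, given as a size only, since the rule had selected the gene on these counts. ENSBTAG00000047655, the most abundant liver-restricted gene, stood at 111, 162 and 216 CPM in liver, with 5 reads summed over the 12 mammary libraries. Its log2 difference was -12.12, likewise given as a size only. With so few reads on one side, these fitted values depend on the prior count of the fit.

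The count of restricted genes moved with the limit. Just inside it, the highest level in the other tissue was 0.09213 CPM for a mammary-restricted and 0.09931 CPM for a liver-restricted gene. Just outside it, the lowest was 0.1037 and 0.104 CPM. Between 0.1 and 0.2 CPM lay a further 42 mammary and 85 liver genes. With CPM scaled by TMM the order of the tissues turned, to 96 mammary-restricted and 83 liver-restricted genes. Without alfalfa hay cow 1 and corn stover cow 3 there were 62 and 149, and without alfalfa hay cow 2 as well 76 and 151.

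The most abundant genes of each tissue had reads in the other tissue, at levels that differed between libraries. In liver, ENSBTAG00000007695 stood at 42.3 to 103 CPM in alfalfa hay cows 1 to 5, or 129 to 314 ppm (millionth parts) of its mammary median. In the 7 other livers it stood at 0 to 9.85 CPM, or 0 to 30.1 ppm. The 5 livers are also those whose count column carries the tissue letter in its header. Without these 5 cows 87 genes met the rule for mammary gland, in place of 56. ENSBTAG00000017121 in mammary gland ranged from 45.3 to 388 ppm of its liver median in alfalfa hay cows and from 190 to 2620 ppm in corn stover cows. Corn stover cows 2, 3 and 4 were highest, at 986, 2620 and 1290 ppm, and without them 214 genes met the rule for liver, in place of 134. The source of these reads was not tested. The rule is easier to meet with fewer libraries of the other tissue, whichever cows are left out. Single cows left out in turn gave 56 to 68 mammary-restricted and 132 to 172 liver-restricted genes. The rise to 87 and to 214 is therefore no measure of these reads alone.

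Abundant enriched genes differed in how much of them was seen in the other tissue. Of the 88 liver-enriched genes at 1000 CPM or more, 59 had a median in mammary gland of 100 to 1000 ppm of their liver level, 1 lay lower, 19 at 1000 to 10000 ppm and 9 higher. Of the 18 mammary-enriched genes, 9 lay below 100 ppm in liver, 2 at 100 to 1000 ppm, 5 at 1000 to 10000 ppm and 2 higher. The second and the third liver gene, which had medians of 3.78 and 3.27% of liver reads, differed in this respect. The second stood at 0.607 to 55.2 CPM in mammary gland, a 90.9-fold range, and the third at 71.3 to 143 CPM, a 2.01-fold range. The sixth liver gene stood at 184 to 1190 CPM in mammary gland, which fitted as -3.97 ± 0.35 log2 units against liver (SE; edgeR adjusted p = 1.59e-08).

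**Figure D5:**
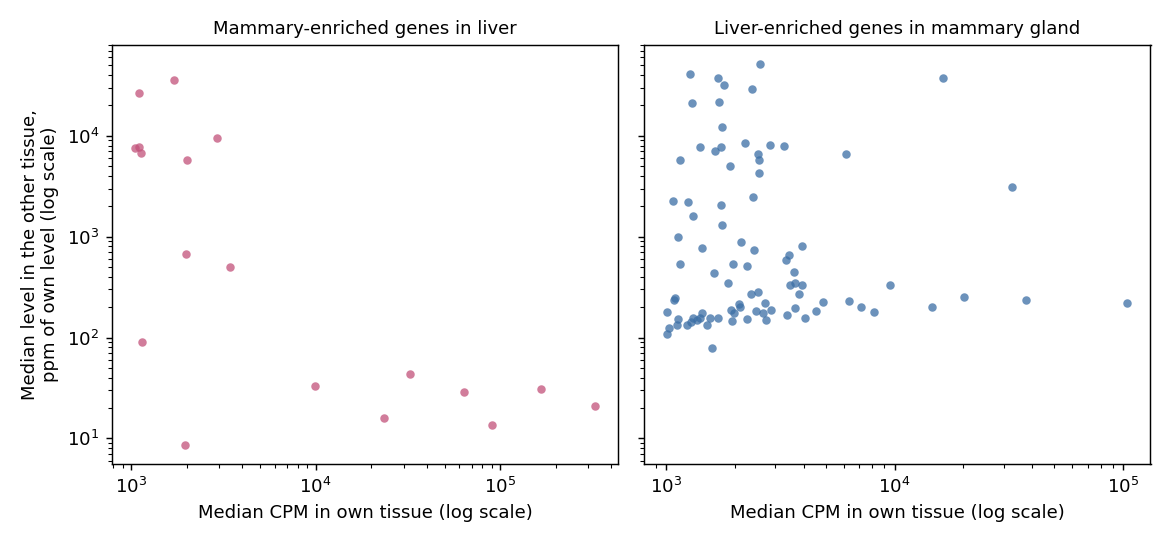
Median level in the other tissue, in ppm of the own-tissue median (log scale), against the own-tissue median in CPM (log scale), for the 18 mammary-enriched (left) and 88 liver-enriched genes (right) at 1000 CPM or more. In mammary gland 59 of the 88 liver-enriched genes lie at 100 to 1000 ppm, and in liver 9 of the 18 mammary-enriched genes lie below 100 ppm.

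Over 6053 genes at a median of at least 5 CPM in both tissues, the SD between cows within a diet had a median of 0.341 in liver and 0.343 in mammary gland on TMM-scaled log2(CPM + 0.5) values. Without the TMM factors the medians were 0.374 and 0.403, so whether the tissues were equally variable depends on the scaling. With TMM the SD was larger in liver for 2979 of these genes, or 49.2%. On TMM-scaled values enriched genes had a median SD of 0.51 for 459 mammary-enriched genes in mammary gland and 0.531 for 910 liver-enriched genes in liver. Of these, 28 and 72 had an SD of 1 or more. Among the 6053 genes above, 84 had an SD of 1 or more in mammary gland and 89 in liver.

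Whether a gene's level followed the cow across both tissues was examined in the same 6053 genes. TMM-scaled mammary and liver log2(CPM + 0.5) values were centred within diet and correlated over the 12 cows. No gene passed after adjustment (0 of 6053, 0.0%; permutation test within diet with 100000 resamples, smallest adjusted p = 0.182). The smallest p that these resamples can give is 1e-05, which is too large for a gene to pass alone among 6053. The count of 0 therefore does not exclude single genes that follow the cow. Without adjustment 334 genes had a p below 0.05 (5.52%), of which 228 were positive and 106 negative. The median correlation over all genes was -0.00104. Without alfalfa hay cow 1 and corn stover cow 3 the count was again 0, with 351 genes below the unadjusted threshold, 230 of them positive, and without alfalfa hay cow 2 as well it was also 0. Fewer cows allow fewer orders within a diet, so a gene could not pass alone there either. In simulated data of 6000 genes, 94.0% of 200 genes with a true correlation of 0.95 were recovered. That many related genes make the adjustment milder, so this share does not carry over to a few related genes. In the data a gene with a correlation of 0.944 had an adjusted p of 0.303 (permutation test within diet). Strong as well as weaker relations in single genes may therefore have gone undetected.

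The tissue comparison was also made within each diet. Among 12683 genes tested in both diets, 7212 were called in alfalfa hay cows and 6349 in corn stover cows. Both diets called 5728 genes, which is 79.4% of the alfalfa hay and 90.2% of the corn stover calls. The sign was the same in 5726 of them. The share held by the 10 most abundant genes was higher in mammary gland by 44.69 percentage points on alfalfa hay and by 45.08 on corn stover. Of the 4 measures of concentration, the number of genes at 1 CPM or more did not pass in alfalfa hay cows alone, and the other 3 passed in each diet.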

How the data were processed

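The authors deposited 1 table of raw read counts per gene for each library, with the same 24616 identifiers in each. The counts are whole numbers, and liver tables end in 5 to 7 blank rows, which were dropped. TopHat2 2.0.9, SAMtools 1.1, HTSeq 0.6.1 and UMD3.1 are named per the submitters' processing notes. Which annotation release, strand setting and filters the authors chose is not given in the sources used here. Overlapping, antisense or near-identical genes may have had reads split or lost.

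Counts were tested with edgeR 4.0.16 (R 4.3.3) quasi-likelihood, terms for cow and tissue, filterByExpr (minimum count 10, minimum total 15), TMM and Benjamini-Hochberg adjustment at 0.05. Limma 3.58.1 and DESeq2 1.42.0 were alternatives. CPM for levels is per library total. TMM-scaled CPM was used for the counts of genes without overlap between the tissues and where stated. The concentration measures used exact sign flips, and the same-cow correlations used 100000 resamples (Python 3.11.15, numpy 2.4.6, scipy 1.17.1). Tested on simulated data (12819 genes), edgeR found 60% of the 2-fold and 96% of the 4-fold changes. Only 200 genes were changed there, with no cow effect, while 67.0% of genes differed in the data. The simulated shares may therefore not carry over.

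The pairing comes from the cow's labels. The deviations of both libraries of a cow from their group means correlated at -0.162 to 0.314, over 0.1 in 5 of 12 cows, and 3 mammary libraries correlated best with their own cow. Floors cover only counting error, as the sources name no molecular identifiers. The classes and tests were chosen with earlier results of these data known. The planned gene lists and the rule for named genes need gene names and could not be applied beyond the clause for at most 2 identifiers per direction. The 4 printed identifiers are the most abundant gene and the most abundant restricted gene of each tissue. Promoter and protein sequences were not used here.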

Additional observations from a re-analysis of the deposited data

Results flagged for a closer look

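Samples far from the others of their tissue and diet were looked for in 40 groups of 6 values, where chance flags about 1 in 20 groups, or 2.0; a sample stood apart in 12. They come from 4 libraries, and their causes were not tested.

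Mammary gland of corn stover cow 1 had its reads spread over more genes than the other 5. Its 10 most abundant genes took 64.57% of reads against 73.54 to 77.32%, 1811 genes held 90% of reads against 618 to 997, and mammary-enriched genes held 66.78% against 74.88 to 78.99%. The liver of the same cow was more concentrated. Its 10 most abundant genes took 35.85% of reads against 26.33 to 27.94%, and its most abundant gene was at 178900 CPM against 89000 to 117600. In this liver 53 genes held 50% of reads against 101 to 128, 2334 held 90% against 3114 to 3466, and 11090 reached 1 CPM against 11610 to 11910.

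The liver of alfalfa hay cow 1 needed 2115 genes for 90% of reads, against 3026 to 3221, and 10660 genes reached 1 CPM, against 11660 to 11970. In the mammary gland of alfalfa hay cow 4 the most abundant mammary gene was at 415900 CPM, against 317300 to 342000, and the most abundant liver gene at 40.55 CPM, against 4.734 to 17.67. This was the deepest library, at 37954234 counts.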

How the results depend on the processing

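Over 17 values and their 406 alternatives, 390 kept their direction and their side of the threshold or stayed within 1.5 times, 15 counts moved further, 1 test lost its threshold and 0 reversed. Only the concentration measures and the log2 differences of the printed genes could be labelled reversed, since counts were compared by size alone. The larger of a pair of counts did change sides in places, as for genes higher and lower and for restricted genes below. Without the replicate block 8751 genes differed between the tissues in place of 8584, and the block moved no other count by over 1.5 times. DESeq2 called 8877 genes and limma voom 8747. Scaling moved the direction counts most: with the library total alone 1510 genes were higher and 8727 lower in mammary gland, and with the total without the 10 most abundant genes 6375 and 2888. With no filter on low counts 1301 genes were mammary-enriched, where more genes were tested (19125). Genes restricted to mammary gland and liver numbered 18 and 37 at 0 reads in the other tissue, 19 and 25 under 1 in 1000 of the own level with a median of at least 10 CPM, 17 and 43 at a median of at least 10 CPM, and 96 and 83 with TMM scaling. Without alfalfa hay cows 1 to 5 there were 87 mammary-restricted genes, and without corn stover cows 2 to 4 (an alternative added after the data were seen) 214 liver-restricted genes. In both, fewer libraries of the other tissue had to meet the limit. The difference in genes at 1 CPM or more was -1126 in alfalfa hay cows alone (6 cows, exact permutation test, adjusted p = 0.0625). Leaving out each cow in turn gave 8258 to 8611 differing genes, 680 to 729 mammary-enriched, 1061 to 1107 liver-enriched, 56 to 68 mammary-restricted and 132 to 172 liver-restricted genes. Leaving out mitochondrially encoded genes was not run, since identifiers matched no names. Same-cow correlations gave 0 calls under all 8 alternatives run, which are counted among the 390. With 6053 genes or more the resamples let no gene pass alone, so 0 calls there says little about stability. Genes at a few reads per library are limited by depth.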
